A study of Mus musculus with 24 samples.

Results

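Eosinophils at stage II of their maturation in mouse bone marrow were compared between mice given interleukin-33 (IL-33) and mice in the steady state. The 6 libraries that carry the stage II label were used, 3 from IL-33-treated mice and 3 from steady state mice, out of 24 libraries that cover 4 stages, I to IV, in both conditions. The IL-33 group consisted of wild type C57BL6 mice that had received 400 ng of recombinant murine IL-33 into the peritoneum every day for 7 days, and the steady state group of wild type mice of the same strain without it. Marrow was pooled from 3 mice. Magnetic beads took away cells labelled for CD45R, NK1.1, CD90.2 or Ly6G. The remaining cells were sorted into the 4 stages with antibodies to CD200R3, Pir-A/B, CD117, CD55, Siglec-F, F4/80 and CD29, but no source used here gives the marker levels that separate stage II from its neighbours. Full-length cDNA was made from the RNA of the sorted cells and sequenced, and the deposited files hold read counts for 24982 gene symbols. No vehicle injection is named for the steady state mice, so the injections and the IL-33 in them cannot be told apart.

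IL-33 is an alarmin of the IL-1 family that binds the receptor ST2, encoded by Il1rl1, and its co-receptor encoded by Il1rap. It drives type 2 inflammation and raises eosinophil numbers, in large part through IL-5, which signals through Il5ra and the common beta chain Csf2rb to the transcription factor STAT5. Eosinophils mature in the marrow from progenitors that use the transcription factors Gata1, Gata2, Cebpa, Cebpe and Spi1, fill their granules with major basic proteins, eosinophil peroxidase and ribonucleases, and stop dividing before they leave.

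The 3 IL-33 libraries held 10398244 to 13520924 gene counts and the 3 steady state libraries 8462786 to 11188883. In the IL-33 libraries 12954 to 13514 genes had a count and in the steady state libraries 11897 to 12207. Reads outside annotated genes made up 11.6% to 14.02% of the IL-33 libraries and 17.8% to 20.6% of the steady state libraries; with 3 libraries a group the exact two-sided permutation test cannot go below 0.1, the value it gave here. Steady state library 3 stood apart from the other two steady state libraries, at -88.7 on the second principal component of the 6 libraries, against 36.7 and 82.8. It also held 4769 CPM (counts of a gene scaled to library size with TMM factors) of the immediate early gene Jun, against 1369 and 1725 CPM. As a check of the label, eosinophil peroxidase (Epx) had 15881, 17659 and 15407 CPM in the IL-33 libraries and 14138, 12763 and 9693 CPM in the steady state libraries, and major basic protein (Prg2) had 11248, 11591 and 10852 CPM in IL-33 and 17272, 13816 and 11831 CPM in the steady state. All 6 libraries thus carried eosinophil granule transcripts at a high level.

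Of 12743 genes tested with edgeR's quasi-likelihood test, 1023 (8.03%) had a Benjamini-Hochberg adjusted p below 0.05, the threshold for calling a gene changed. Of these, 517 were higher (4.06% of genes tested) and 506 lower (3.97%) in the IL-33 libraries. The median log2 fold change over all genes tested was 0.06. Without regard to the test, 20% of genes had all 3 IL-33 libraries above all 3 steady state libraries, and 11.4% had them all below. Leaving out IL-33 library 1, 2 or 3 lowered the count of changed genes to 580, 381 or 571, and leaving out steady state library 3 lowered it to 656. P-values measure the spread between libraries, estimated over all 24 libraries treated as independent. Same-numbered libraries of a condition deviated together across stages (correlations 0.023 to 0.298), and whether they came from the same pool of mice is not stated. Fitted alone, the 6 stage II libraries gave 734 changed genes, 590 of them shared with the 1023.

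**Figure D1:**
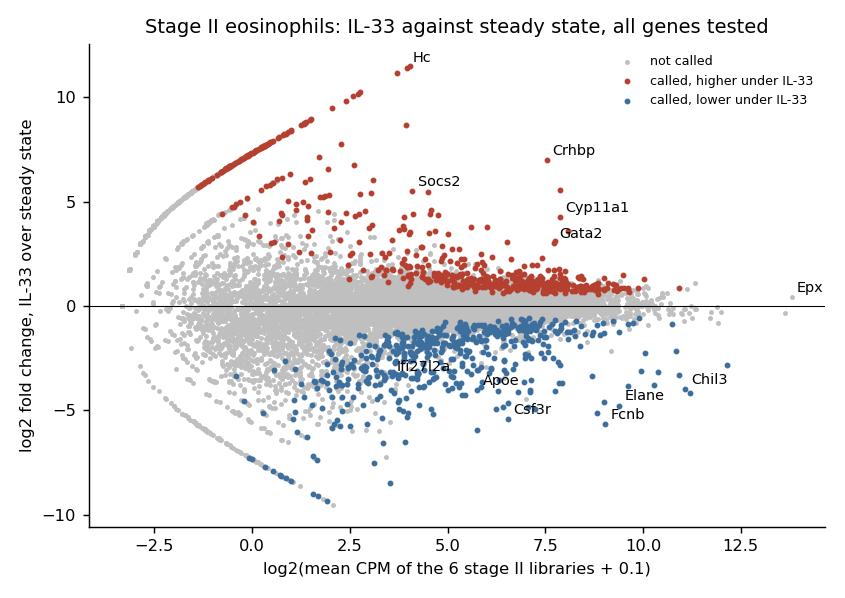
Log2 fold change of each of the 12743 genes tested, IL-33 over steady state in stage II, against log2 of its mean CPM over the 6 libraries plus a small constant. Red and blue points are genes called higher (517) and lower (506), grey points were not called, and the curved edges at low levels are genes with no counts in one of the groups.

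Among the 15 largest increases, several were in genes nearly silent in steady state stage II cells. Hc, which encodes complement component C5 (GRCm38 chr2:34983331-35061438), had 27.8, 39.5 and 25.4 CPM in the IL-33 libraries and no count in any steady state library. Bex1 (chrX:136213972-136215513) had 30.4, 40.1 and 27.0 CPM in IL-33 and no count in the steady state. C7, which encodes a component of the membrane attack complex, had 27.2, 30.8 and 19.97 CPM in IL-33 and no count in the steady state. For all 3 genes the groups did not overlap, and counting 3 reads as the floor over the steady state group the levels were at least 314-fold higher for Hc, 330-fold for Bex1 and 262-fold for C7 (edgeR adjusted p = 1.69e-07, 3.41e-05 and 0.00139). The potassium channel gene Kcnk5 rested on 1148 counts in IL-33 and 2 in the steady state, a ratio of 453.9 with a 95% exact counting interval of 125 to 3752 (edgeR adjusted p = 0.000294).

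Crhbp, which encodes the binding protein of corticotropin-releasing hormone (chr13:95431371-95444924), had 359, 399 and 356 CPM in the IL-33 libraries and 4.63, 4.07 and 0.264 CPM in the steady state libraries. Cyp11a1, the mitochondrial enzyme that converts cholesterol to pregnenolone (chr9:58006411-58027023), had 391, 501 and 439.1 CPM in IL-33 and 29.7, 35.9 and 4.67 CPM in the steady state. Lipg, endothelial lipase, had 417, 548 and 417 CPM in IL-33 and 25.8, 3.46 and 0.528 CPM in the steady state. Every IL-33 library lay far above every steady state library for these 3 genes, and steady state library 3 was the lowest for each. The increases were 126-fold for Crhbp (log2 6.98, SE 0.63), 18.99-fold for Cyp11a1 (log2 4.25, SE 0.50) and 46.9-fold for Lipg (log2 5.55, SE 1.06), with edgeR adjusted p of 1.01e-06, 1.69e-05 and 0.00224. Others among the 15 largest increases were Akr1c18, which inactivates progesterone (44.8-fold), the low-density lipoprotein receptor family member Lrp12 (24.03-fold), Kdelr3, which returns proteins to the endoplasmic reticulum (21.2-fold), Bcl2a1a, an anti-apoptotic Bcl2 relative (20.9-fold), Tspo2 (20.3-fold), the actin regulator Cttn (19.3-fold) and the complement receptor C3ar1 (14.4-fold). The calls of Akr1c18 and Lrp12 were lost without IL-33 library 2 (edgeR adjusted p = 0.0614 and 0.0523), and that of Lrp12 also without steady state library 1 or 3 (0.0541 and 0.0628); over the 6 fits that each left out a library the values ranged over 0.00602 to 0.0614 for Akr1c18 and 0.00164 to 0.0628 for Lrp12. Bcl2a1a shares near-identical sequence with other Bcl2a1 genes, so how reads were divided among them is uncertain.

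**Figure D2:**
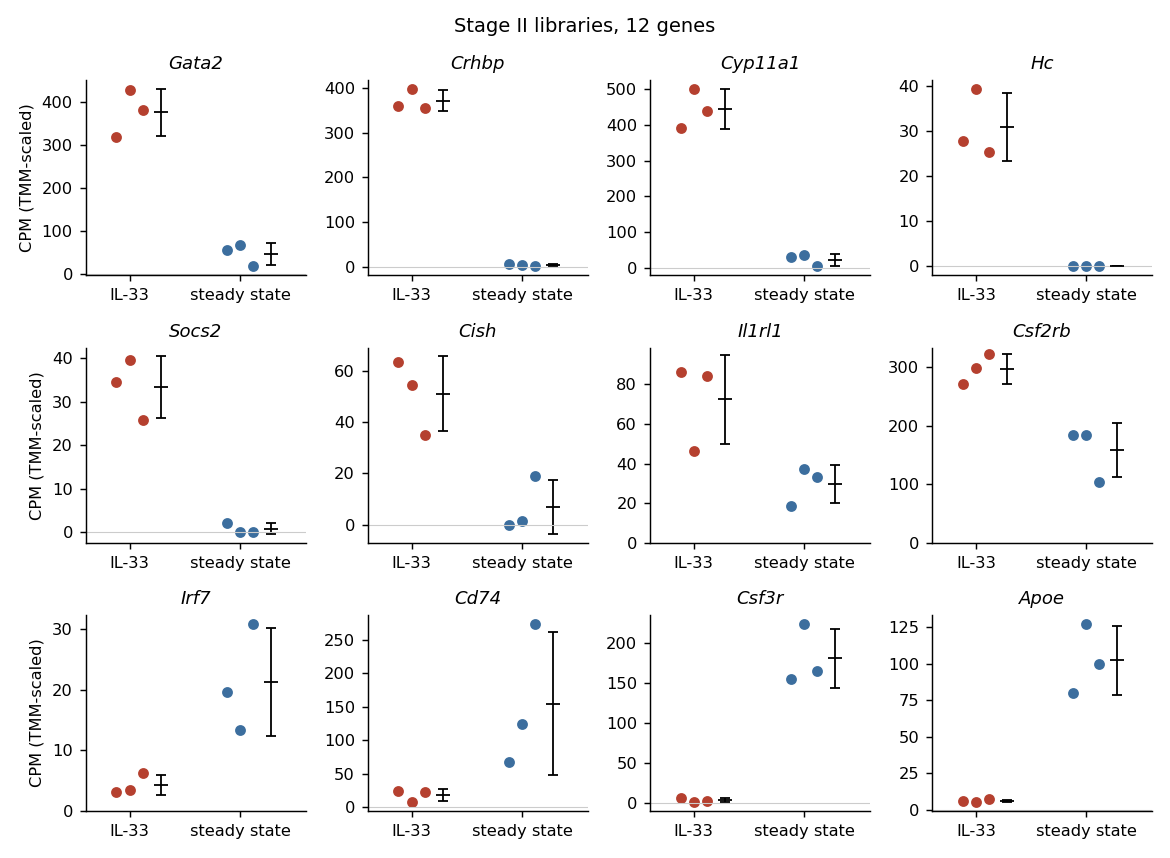
CPM of 12 genes in each of the 3 IL-33 (red) and 3 steady state (blue) stage II libraries, with the mean and SD beside them, on linear axes. The upper 8 genes were higher and the lower 4 lower in IL-33, and for each of the 12 the groups did not overlap.

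Among genes for sensing IL-33 and the cytokines downstream of it, the receptor chains moved in different directions. Il1rl1 (chr1:40429570-40465415) had 86.0, 46.5 and 84.3 CPM in the IL-33 libraries and 18.8, 37.1 and 33.5 CPM in the steady state libraries. The lowest IL-33 library was above the highest steady state library, and Il1rl1 rose 2.43-fold (log2 1.28, SE 0.32, edgeR adjusted p = 0.0157). Il17rb, the receptor for IL-25, fell to 20.8, 18.5 and 25.8 CPM in IL-33, against 113, 122 and 61.3 CPM in the steady state, with no overlap (log2 -2.19, SE 0.36, edgeR adjusted p = 0.000595). Il1rap had a log2 fold change of -1.07 and did not pass (edgeR adjusted p = 0.11). In all, 1 of 8 receptor chains for IL-33, IL-25, TSLP, IL-4 and IL-13 rose and 1 fell, and the median was -0.95 on the log2 scale. Over all genes tested 4.06% rose and 3.97% fell.

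Il5ra had 200.0, 124 and 200 CPM in the IL-33 libraries and 163, 119 and 159 CPM in the steady state libraries, so the groups overlapped and the gene was not called (log2 0.25, edgeR adjusted p = 0.686). The common beta chain Csf2rb had 272, 298 and 322 CPM in IL-33 and 185, 185 and 105 CPM in the steady state, and its paralog Csf2rb2, the IL-3-specific chain, had 51.7, 52.4 and 43.3 CPM in IL-33 and 18.9, 29.5 and 17.6 CPM in the steady state. Both were higher in every IL-33 library, Csf2rb by 1.88-fold and Csf2rb2 by 2.23-fold (edgeR adjusted p = 0.0379 and 0.0259). These sequences are close, so reads may be divided between them imperfectly. In the same list of 7 receptor chains, Csf1r and Csf3r, the receptors for M-CSF and G-CSF, fell by 1.74 and 5.42 on the log2 scale. The calls of the chains that rose depended on the fit and on single libraries. Il1rl1, Csf2rb and Csf2rb2 all lost their calls with the 6 stage II libraries fitted alone. Limma-voom did not call Il1rl1 or Csf2rb2. Csf2rb was also lost with RLE scaling, and Csf2rb and Csf2rb2 with library totals as scaling. Leaving out one library gave an edgeR adjusted p of 0.0145 to 0.0703 for Il1rl1 (lost without steady state library 1, at 0.0670, or IL-33 library 1 or 3, at 0.0703 and 0.0681). The values were 0.0419 to 0.170 for Csf2rb (lost without steady state library 3, at 0.170, or IL-33 library 1, 2 or 3, at 0.0691, 0.106 and 0.117) and 0.0186 to 0.106 for Csf2rb2 (lost without steady state library 1 or 3, at 0.0752 and 0.106, or IL-33 library 1 or 2, at 0.0738 and 0.0902).

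STAT5 switches on feedback inhibitors of cytokine signalling. Socs2 had 34.6, 39.7 and 25.7 CPM in the IL-33 libraries and 2.21, 0 and 0.0881 CPM in the steady state libraries. Cish (chr9:107296026-107302784) had 63.4, 54.6 and 34.9 CPM in IL-33 and 0, 1.63 and 19.02 CPM in the steady state. Socs1 had 60.1, 40.2 and 38.2 CPM in IL-33 and 14.5, 6.10 and 10.0 CPM in the steady state. All 3 inhibitors were higher in every IL-33 library, although Cish in steady state library 3 was well above the other steady state libraries. Socs2 rose 45.1-fold, Cish 7.28-fold and Socs1 4.53-fold, and the kinase gene Pim2 rose 3.34-fold (edgeR adjusted p = 0.00071, 0.0219, 0.00385 and 0.00376). Of 16 STAT5 feedback and target genes tested, 4 rose and 1 fell, the repressor Bcl6 (log2 -3.69, edgeR adjusted p = 0.0287). The median log2 fold change was 0.26, and of all genes tested 4.06% rose and 3.97% fell. Leaving out one library gave an edgeR adjusted p of 2.66e-05 to 0.0770 for Cish, above the threshold without steady state library 2 (0.0770) or IL-33 library 1 or 2 (0.0651 and 0.0634). For Bcl6 the values ran between 0.0332 and 0.0960, above the threshold without steady state library 3 (0.0659) or IL-33 library 2 or 3 (0.0960 and 0.0938).

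STAT dimers bind the palindrome TTCNNNGAA, which was sought on both strands in windows of 250 bases before to 50 after each start (RefSeq, GRCm38.p6). It was present in 8.3% of 32851 such windows, and in at least one window of 9.55% of 27025 genes. Among the STAT5 list, 2 of 4 called genes with a window (Cish and Bcl6) and 1 of 9 genes tested but not called held it. The 30 bases of Cish at chr9:107296654-107296683, plus strand, are printed because they hold 2 matches side by side, in capitals.
Cish: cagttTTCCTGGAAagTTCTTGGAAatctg
A match describes the letters in the window and is not evidence of binding.

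Among lineage transcription factors, Gata2 rose. This factor of early progenitors, basophils and mast cells (chr6:88193891-88207032) had 319, 429.6 and 382 CPM in the IL-33 libraries and 56.1, 66.7 and 17.4 CPM in the steady state libraries. The groups were far apart, and Gata2 rose 8.07-fold (log2 3.01, SE 0.36, edgeR adjusted p = 2.16e-05). Gata2 was also the 1 member called among 11 stem and multipotent progenitor markers, of which 9 had a negative log2 fold change. Its partner Gata1 averaged 226 ± 9.34 CPM in IL-33 and 138 ± 36.2 CPM in the steady state (SD, n = 3 each) and did not pass (log2 0.71, edgeR adjusted p = 0.149). Cebpe, which drives granule gene expression, did not pass either (log2 0.53, edgeR adjusted p = 0.278). Irf8, a factor of the monocyte and dendritic cell lineages, fell to 11.3, 6.52 and 17.6 CPM in IL-33, against 69.9, 85.8 and 140.3 CPM in the steady state, with no overlap (log2 -3.06, edgeR adjusted p = 0.0013). Id2, an inhibitor of basic helix-loop-helix factors, fell to 98.0, 78.6 and 101 CPM in IL-33, against 269, 218 and 297 CPM in the steady state (log2 -1.50, edgeR adjusted p = 0.00169). In all 3 of 39 factors rose (Gata2, Runx3 and Gfi1b) and 7 fell (Irf8, Id2, Cebpd, Cebpa, Trib1, Bcl6 and Ets1), beside 4.06% and 3.97% of all genes tested. The median was -0.19 on the log2 scale, and with any one library left out 2 to 3 rose and 2 to 8 fell. Without IL-33 library 2, the calls of Cebpa and Cebpd were lost (edgeR adjusted p = 0.0839 and 0.0507, over ranges of 0.00821 to 0.0839 and 0.00373 to 0.0507 with any one library left out). The call of Ets1 was lost whichever library was left out, and that of Gfi1b in every such fit except the one without steady state library 3. Trib1 lost its call without steady state library 3 or IL-33 library 1 or 2, and Runx3 without steady state library 3.

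Genes of protein folding in the endoplasmic reticulum were higher in IL-33 stage II cells. Of 31 tested, 12 rose and 0 fell, beside 4.06% and 3.97% of all genes tested, and the median log2 fold change was 0.84. Sec61a1, the pore through which secretory proteins enter, had 648, 855 and 702 CPM in IL-33 and 381, 270.1 and 218 CPM in the steady state. The chaperone Hsp90b1 had 2469, 2771 and 2307 CPM in IL-33 and 1536, 1213 and 1424 CPM in the steady state, and the lectin chaperone Canx had 895, 883 and 800.1 CPM in IL-33 and 531, 465 and 447.1 CPM in the steady state. These genes were higher in every IL-33 library, with fold changes of 2.54 for Sec61a1, 1.81 for Hsp90b1 and 1.79 for Canx (edgeR adjusted p = 0.00177, 0.00765 and 0.00789). The other members called were Dnajb11, Trib3, Pdia4, Dnajc3, Selenos, Sdf2l1, Spcs2, Ssr2 and Creld2. Calls of Sdf2l1, Spcs2, Ssr2 and Creld2 were lost with RLE scaling and with the 6 stage II libraries fitted alone. They were also lost whichever single library was left out, except steady state library 1. The count of 12 that rose became 7, with 1 that fell, without the steady state libraries numbered 3 of all 4 stages. It became 5, with 1 that fell, with the 6 stage II libraries fitted alone, and 4 to 15 with any 1 library left out.

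Cholesterol synthesis genes followed the same direction, with 5 of 22 higher, among them Fdps and Srebf2, 0 lower and a median log2 fold change of 0.53. Fdps, which makes farnesyl diphosphate, had 429, 558 and 471 CPM in IL-33 and 212, 214 and 142 CPM in the steady state, a 2.57-fold increase with no overlap (edgeR adjusted p = 0.0125). Its call was lost without steady state library 3 (edgeR adjusted p = 0.0602) or IL-33 library 2 (0.0589), over a range of 0.0237 to 0.0602. With any one library left out 1 to 4 members rose. Cytosolic ribosomal protein genes had a positive log2 fold change in 44 of 44 members, with a median of 0.79. Of these, 3 passed the test (Rpl27, Rplp2 and Rps7), beside 4.06% of all genes tested that rose. Their summed level was 15192, 18651 and 16484 CPM in IL-33 and 11843, 11616 and 6143 CPM in the steady state, steady state library 3 being the lowest, and without the steady state libraries numbered 3 the median was 0.45 and 0 members passed. Ribosome biogenesis genes rose in 4 of 32 (Mybbp1a, Fbl, Npm1 and Ncl), with a median log2 fold change of 0.56; 1 rose without the steady state libraries numbered 3.

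Interferon-stimulated genes were lower in IL-33 stage II cells. Of 36 tested, 13 fell and 0 rose, beside 3.97% and 4.06% of all genes tested. In this list 34 members had a negative log2 fold change, and the median was -1.75. Irf7, the transcription factor that amplifies the interferon response (chr7:141262706-141266481), had 3.20, 3.44 and 6.21 CPM in the IL-33 libraries and 19.6, 13.4 and 30.9 CPM in the steady state libraries. Ifi27l2a had 2.76, 1.39 and 2.09 CPM in IL-33 and 16.7, 19.3 and 28.4 CPM in the steady state. Neither gene overlapped between groups, and IL-33 cells held 0.202 of the steady state level of Irf7 and 0.0969 of Ifi27l2a (edgeR adjusted p = 0.0013 and 0.000119). Other members that fell included Xaf1, Rtp4, Usp18, Trim30a, Isg15, Gbp2, Zbp1, Ifi47, Isg20 and Dhx58. With any one library left out 10 to 12 members fell, and 16 fell without the steady state libraries numbered 3; with the 6 stage II libraries fitted alone 6 of 33 fell. The monocyte and macrophage markers described below moved the same way, and their part in these genes was not tested.

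Interferon regulatory factors bind repeats of GAAA, and the pattern GAAA, any 2 bases, GAAA was sought on both strands in the same windows. It was present in 3.44% of all windows and in at least one window of 3.99% of genes. Among the interferon-stimulated list, 3 of 7 called genes with a window and 14 of 20 genes tested but not called held it, as did 1 of 2 genes that were at 0 in all 6 libraries and not tested. The 250 bases before the start are printed for Isg15 (GRCm38.p6 chr4:156200819-156201068, minus strand), where 3 matches overlap, and Gbp2 (chr3:142620413-142620662, plus strand), where the match lies on the other strand; capitals mark the matches.
Isg15: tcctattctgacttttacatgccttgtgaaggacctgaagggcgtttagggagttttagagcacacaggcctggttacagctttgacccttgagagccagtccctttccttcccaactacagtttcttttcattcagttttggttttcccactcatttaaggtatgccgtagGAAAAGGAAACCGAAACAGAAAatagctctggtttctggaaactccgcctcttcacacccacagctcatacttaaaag
Gbp2: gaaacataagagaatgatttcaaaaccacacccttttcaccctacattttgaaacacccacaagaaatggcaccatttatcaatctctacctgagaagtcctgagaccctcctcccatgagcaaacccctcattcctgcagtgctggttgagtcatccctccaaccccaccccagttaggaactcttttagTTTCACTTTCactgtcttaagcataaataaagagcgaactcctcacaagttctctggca
Isg15, a ubiquitin-like modifier, had 1.07, 1.68 and 1.42 CPM in IL-33 and 6.84, 3.46 and 8.28 CPM in the steady state, and Gbp2, an interferon-induced GTPase, had 0, 0.806 and 0 CPM in IL-33 and 9.04, 8.75 and 10.6 CPM in the steady state. Both were low in level and separated the groups (edgeR adjusted p = 0.00662 and 0.0101).

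Genes that present peptides on MHC class II fell in 4 of 7 members, beside 3.97% of all genes tested. The median log2 fold change of the list was -2.69. H2-DMa, which loads peptides, had 7.74, 5.57 and 9.35 CPM in IL-33 and 32.1, 56.0 and 57.7 CPM in the steady state (log2 -2.69, edgeR adjusted p = 6.72e-05). The invariant chain Cd74 had 24.9, 8.06 and 22.4 CPM in IL-33 and 67.5, 124 and 274 CPM in the steady state (log2 -3.07, edgeR adjusted p = 0.0242). Neither gene overlapped between groups, but the steady state libraries differed widely among themselves for Cd74. Its call was lost without steady state library 3 (edgeR adjusted p = 0.109) or IL-33 library 1, 2 or 3 (0.0628, 0.131 and 0.0724), over a range of 0.0194 to 0.131. H2-Aa and H2-DMb1 were the other members that fell, and with any one library left out 2 to 6 members fell. The B cell markers described below had a negative log2 fold change in 9 of 9 members, with a median of -2.91, and summed to 56.4, 46.1 and 32.2 CPM in IL-33 and 69.3, 100.2 and 313.9 CPM in the steady state. The dendritic cell markers had a median of -2.82. Steady state library 3 was the highest for the summed level of MHC class II genes and for both marker lists, and the part of either cell type in the decreases of MHC class II genes was not tested.

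**Figure D3:**
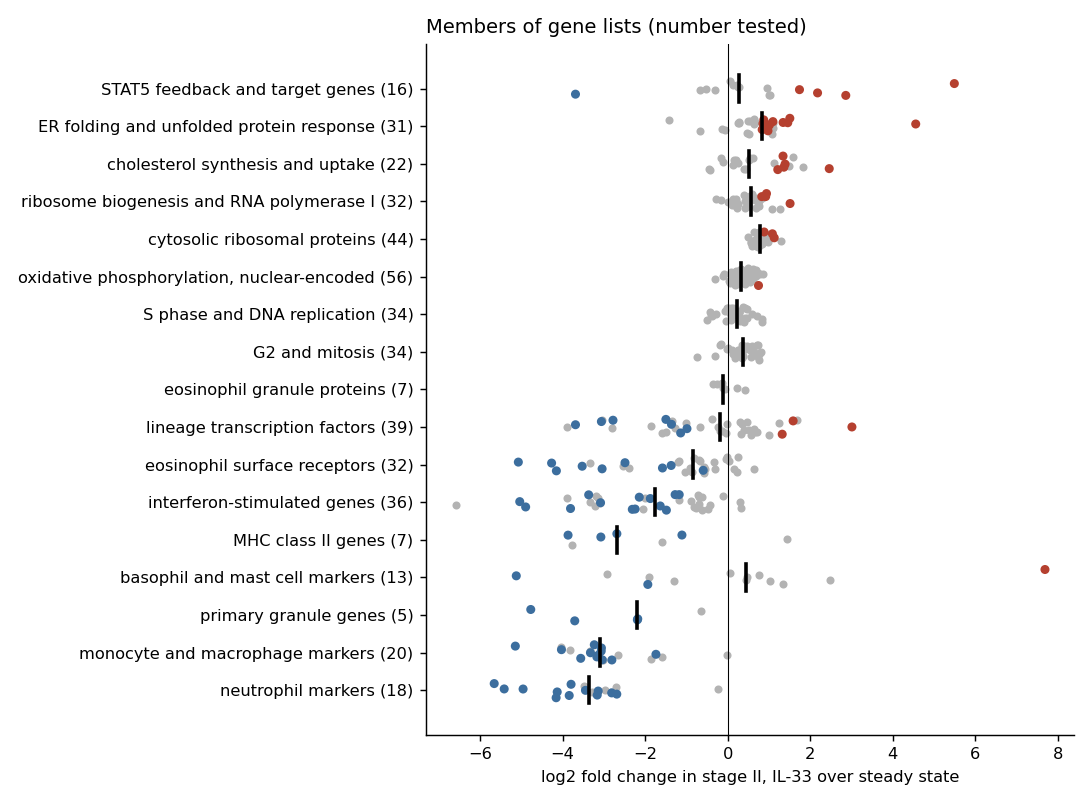
Log2 fold change in stage II, IL-33 over steady state, of each tested member of 17 gene lists, with the number tested in brackets. Red and blue points were called higher and lower, grey points were not called, and black bars are medians; the bars run between 0.84 for endoplasmic reticulum folding genes and -3.37 for neutrophil markers.

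Granule protein genes of eosinophils were called in neither direction by edgeR, DESeq2 or limma-voom, and 0 had an unadjusted p below 0.05, with a median log2 fold change of -0.12 over 7 members. The values were 0.42 for Epx, -0.35 for Prg2 and -0.27 for Prg3 (edgeR adjusted p = 0.341, 0.479 and 0.685). Although not called, Epx was higher and Prg2 lower in every IL-33 library than in any steady state library. Such separation held for 20% (higher) and 11.4% (lower) of all genes tested. Of 32 eosinophil surface receptors, 9 fell and 0 rose, beside 3.97% and 4.06% of all genes tested. Clec4a2, an inhibitory lectin receptor, fell to 26.3, 11.1 and 30.4 CPM in IL-33, against 214, 251 and 315 CPM in the steady state, with no overlap (log2 -3.53, edgeR adjusted p = 1.87e-05). The tetraspanin Cd9 fell to 113, 164 and 130.5 CPM in IL-33, against 407, 321 and 489.7 CPM in the steady state (log2 -1.58, edgeR adjusted p = 0.000222). Siglecf and the eotaxin receptor Ccr3 were not called (log2 -0.02 and -1.04). With any one library left out 3 to 8 of the 32 receptors fell.

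Of the proteins that the sort gated on, the transcript of the complement regulator Cd55 had 253, 263 and 206 CPM in IL-33 and 87.8, 75.3 and 102 CPM in the steady state. This was a 2.73-fold increase with no overlap (log2 1.45, SE 0.22, edgeR adjusted p = 0.000314). Pirb, an inhibitory receptor, fell to 80.2, 94.0 and 103 CPM in IL-33, against 210.2, 162 and 343 CPM in the steady state (log2 -1.37, edgeR adjusted p = 0.012). Its near-identical Pira relatives make that count uncertain, and its call was lost without steady state library 3 (edgeR adjusted p = 0.0794) or IL-33 library 1 or 2 (0.0612 and 0.0556), over a range of 0.00802 to 0.0794. Kit, which encodes CD117, averaged 50.3 ± 15.1 CPM in IL-33 and 124 ± 9.14 CPM in the steady state (SD, n = 3 each) and was not called (log2 -1.30, edgeR adjusted p = 0.169), although the groups did not overlap. Kit was called lower by limma-voom, by edgeR on the 6 stage II libraries alone and by edgeR with the replicate block on those 6, and the adjusted p ranged over 0.0163 to 0.174 across the alternatives that kept all 6 libraries or left out the steady state libraries numbered 3.

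Nqo1, a quinone reductase of the oxidative defence, had 15.6, 17.1 and 19.97 CPM in IL-33 and 2.76, 3.05 and 4.31 CPM in the steady state, a 5.18-fold increase (edgeR adjusted p = 0.000299). Cybb, the catalytic subunit of the phagocyte NADPH oxidase, had 428, 260.1 and 395 CPM in IL-33 and 1610, 1337 and 2281 CPM in the steady state. It fell by 2.27 on the log2 scale without overlap (edgeR adjusted p = 0.00048). Nfe2l2, the factor that switches on antioxidant genes, fell by 1.09 (edgeR adjusted p = 0.00206). In the NF-kB list of 29 genes, Nfkb1 rose 2.24-fold (261, 296 and 234 CPM in IL-33 and 132, 109 and 110.0 CPM in the steady state, edgeR adjusted p = 0.00221). Bcl2a1b rose 12.2-fold (edgeR adjusted p = 0.000461) and Birc3 fell (log2 -1.24, edgeR adjusted p = 0.0235), while the median over the list was -1.08. The summed level of the list was 1747, 2122 and 2048 CPM in IL-33 and 1834, 1857 and 6984 CPM in the steady state, where only library 3 lay above the IL-33 libraries. The call of Birc3 was lost without steady state library 3 (edgeR adjusted p = 0.153) or IL-33 library 1, 2 or 3 (0.0712, 0.0927 and 0.0865), over a range of 0.0123 to 0.153. Of 22 AP-1 and immediate early genes 0 were called by edgeR, 4 were lower at an unadjusted p below 0.05, DESeq2 called 2 lower and limma-voom called 1 higher and 1 lower. Their summed level was 9250, 10849 and 13638 CPM in IL-33 and 8357, 7621 and 26526 CPM in the steady state, steady state library 3 being the highest.

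Genes of neutrophils and monocytes were lower in IL-33 stage II libraries. Of 18 neutrophil markers tested, 12 fell and 0 rose, beside 3.97% and 4.06% of all genes tested. The median was -3.37 on the log2 scale. Csf3r, the G-CSF receptor, had 7.03, 2.27 and 3.51 CPM in IL-33 and 156, 224 and 165 CPM in the steady state (log2 -5.42, edgeR adjusted p = 0.00311). The ficolin gene Fcnb had 41.5, 8.496 and 11.4 CPM in IL-33 and 1054, 1468 and 566 CPM in the steady state (log2 -5.66, edgeR adjusted p = 0.00141). Lactoferrin (Ltf) had 619, 58.2 and 72.9 CPM in IL-33 and 6266, 2512 and 4605 CPM in the steady state (log2 -4.16, edgeR adjusted p = 0.0294). No IL-33 library reached the lowest steady state library, and IL-33 library 1 was the highest of its group for each. The call of Ltf was lost without steady state library 1 or 3 (edgeR adjusted p = 0.0551 and 0.0519) or IL-33 library 2 or 3 (0.141 and 0.121), over a range of 0.0149 to 0.141. Summed over the list, neutrophil markers amounted to 4311, 1503 and 1696 CPM in IL-33 and 27609, 18374 and 23285 CPM in the steady state. Stfa2 was at 0 in all 6 libraries and Stfa3 in the 3 IL-33 libraries. With any one library left out 5 to 13 markers fell.

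Primary granule genes of the granulocyte and monocyte precursors fell in 4 of 5 members, beside 3.97% of all genes tested. Neutrophil elastase (Elane) had 67.5, 31.6 and 43.1 CPM in IL-33 and 979, 2417 and 489.8 CPM in the steady state (log2 -4.77, edgeR adjusted p = 0.000118). Proteinase 3 (Prtn3) had 36.5, 27.0 and 35.1 CPM in IL-33 and 304, 819 and 165 CPM in the steady state (log2 -3.71, edgeR adjusted p = 4.35e-05). The groups did not overlap, and steady state library 2 was the highest for both. With any one library left out 2 to 4 members fell. The summed level of the list was 1158, 1241 and 1046 CPM in IL-33 and 4473, 9767 and 2466 CPM in the steady state.

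Of 20 monocyte and macrophage markers 12 fell and 0 rose, beside 3.97% and 4.06% of all genes tested. The median was -3.10 on the log2 scale. Summed levels of the list were 1803, 1232 and 1552 CPM in IL-33 and 5961, 5309 and 6466 CPM in the steady state. Apolipoprotein E (Apoe) had 5.87, 5.71 and 7.18 CPM in IL-33 and 79.8, 127 and 99.9 CPM in the steady state. Lysozyme 2 (Lyz2) had 536, 155 and 371 CPM in IL-33 and 4133, 2845 and 3668 CPM in the steady state. Both fell without overlap, Apoe by 4.03 and Lyz2 by 3.33 on the log2 scale (edgeR adjusted p = 2.42e-07 and 0.000354). With any one library left out 8 to 12 markers fell. Chil3, a chitinase-like protein of alternatively activated macrophages that neutrophil precursors also make, fell to 436.7, 135 and 199 CPM in IL-33, against 5806, 2986 and 3485 CPM in the steady state (log2 -3.99, edgeR adjusted p = 0.00156). Several of the 15 largest decreases were markers from these lists (Fcnb, Csf3r, Chil1 and Cx3cr1). The others included the chitinase Chit1, with 2 counts in IL-33 and 686 in the steady state (a steady state to IL-33 ratio of 434, 95% exact counting interval 120 to 3589), the histamine receptor Hrh2 (log2 -6.55), Mrgpra2b (-6.54), Prom1 (-5.92), Gpr84 (-5.32), Olfml2b (-5.20), Prss34 (-5.12), Calcrl (-5.01), Thbs1 (-4.96), Orm1 (-4.93) and Map3k8 (-4.93).

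Leaving out one library ended the calls of 8 of these decreases. The edgeR adjusted p rose to at most 0.106 for Prom1, 0.131 for Gpr84, 0.125 for Olfml2b, 0.0764 for Orm1, 0.106 for Chil1, 0.0788 for Prss34, 0.0536 for Map3k8 and 0.0561 for Cx3cr1, each time without IL-33 library 2. The smallest values over the same 6 fits were 0.0325, 0.0393, 0.0144, 0.0158, 0.00955, 0.0166, 0.00561 and 0.00525 in the same order. Steady state libraries 2 and 3 and IL-33 library 3 also decided some of them: without steady state library 2, Prom1, Gpr84 and Olfml2b were at 0.0581, 0.0574 and 0.0608, and without steady state library 3, Gpr84 was at 0.0560. IL-33 library 3 left out put Prom1, Gpr84, Olfml2b, Orm1 and Chil1 at 0.105, 0.112, 0.122, 0.0656 and 0.0956. Without IL-33 library 1, Gpr84 and Prss34 were at 0.0661 and 0.0745.

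Markers of other cells gave a mixed picture. Of 13 basophil and mast cell markers, 1 rose (Cma1) and 2 fell (Fcer1a and Prss34). These counts, like those of the lists that follow, stand beside 4.06% of all genes tested that rose and 3.97% that fell. The median log2 fold change was 0.44, with 8 members positive and 5 negative. At an unadjusted p below 0.05, 4 were higher and 4 lower, DESeq2 called 2 higher and 2 lower, and limma-voom 2 higher and 4 lower. Fcer1a, the alpha chain of the IgE receptor, had 79.2, 68.8 and 86.5 CPM in IL-33 and 281, 435 and 181 CPM in the steady state (log2 -1.94, edgeR adjusted p = 0.00311). The basophil protease Mcpt8 had 103, 148 and 175 CPM in IL-33 and 689, 667 and 244 CPM in the steady state, with no overlap but no call (log2 -1.91, edgeR adjusted p = 0.166). Their summed level was 1999, 2420 and 2515 CPM in IL-33 and 3770, 3827 and 1633 CPM in the steady state, and the mast cell protease genes Mcpt1, Mcpt2, Mcpt4, Tpsab1 and Tpsb2 were at 0 in all 6 libraries. B cell markers had 0 of 9 called by edgeR, DESeq2 or limma-voom and 1 lower at an unadjusted p below 0.05, with sums of 32.2 to 56.4 CPM in IL-33 and 69.3 to 314 CPM in the steady state. Of 12 dendritic cell markers 1 fell, Cd209a, and the median log2 fold change was -2.82. In this list 4 markers were lower at an unadjusted p below 0.05, 4 by DESeq2 and 3 by limma-voom, with sums of 61.3 to 65.5 CPM in IL-33 and 84.8 to 164 CPM in the steady state. T, NK and innate lymphoid markers had 0 of 6 called by the same 3 tools, 0 at an unadjusted p below 0.05, and sums of 509 to 602 CPM in IL-33 and 290.5 to 838 CPM in the steady state, with Cd3e, Cd8a, Gata3 and Ncr1 at 0 in all 6. Erythroid markers had 1 of 10 higher (Tspo2) and 0 lower by edgeR, with a median log2 fold change of -2.83. In this list 6 markers were lower at an unadjusted p below 0.05, 5 by DESeq2, 4 by limma-voom and 4 by edgeR on the 6 stage II libraries alone. The list had sums of 83.5 to 111 CPM in IL-33 and 97.7 to 173 CPM in the steady state, with the globin genes Hba-a1, Hba-a2, Hbb-bs and Hbb-bt at 0 in all 6. In such bulk libraries, fewer cells of a type and less RNA per cell cannot be told apart. The part of neutrophil, monocyte, basophil, B cell and dendritic cell transcripts in the decreases of other lists was not tested.

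**Figure D4:**
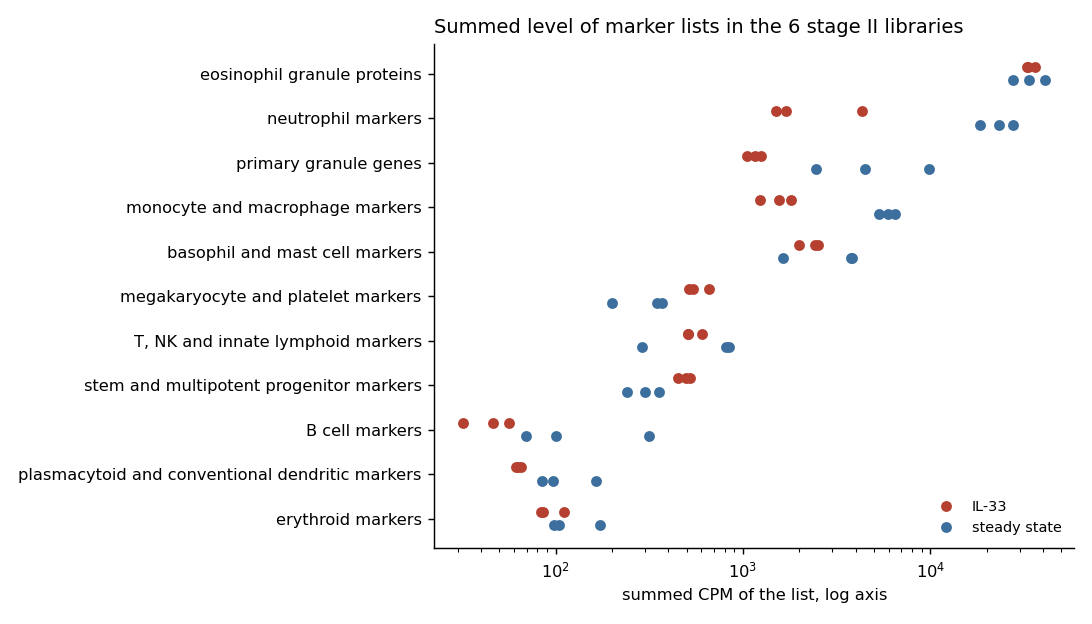
Summed CPM of marker lists in the 3 IL-33 (red, upper) and 3 steady state (blue, lower) stage II libraries, on a log axis. Eosinophil granule sums overlap between groups (32935 to 36170 and 27691 to 41030 CPM), whereas neutrophil, primary granule and monocyte sums in IL-33 lie below those of the steady state.

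Cell division genes were not called in stage II. Of 34 S phase genes and 34 genes of G2 and mitosis, 0 passed in either direction by edgeR, with median log2 fold changes of 0.22 and 0.38. At an unadjusted p below 0.05, 1 and 4 of them were higher; DESeq2 called 0 in both lists, and limma-voom called 1 and 4 higher. Mki67, the proliferation marker, had 479, 453.3 and 438.4 CPM in IL-33 and 315, 246 and 516 CPM in the steady state, where library 3 lay above all IL-33 libraries (log2 0.35, edgeR adjusted p = 0.49). Myc was not called (log2 1.01, edgeR adjusted p = 0.434).

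The effect in stage II was then set against that in the neighbouring stages by testing the difference of the log2 fold changes, with all 24 libraries treated as independent. Against stage I, 0 genes (0%) passed with edgeR, the smallest adjusted p being 0.0769, while 967 had an unadjusted p below 0.05; DESeq2 called 103 and limma-voom 37, and edgeR called 31 without the steady state libraries numbered 3. Libraries of the same number and condition deviated together between stages I and II, with correlations of 0.117 to 0.298. With the number within each condition as a block, a choice made after seeing the data, edgeR called 41 genes, 36 with the lower effect in stage II and 5 with the higher. Among them were Elane (difference -3.67), Prtn3 (-2.93), Fcnb (-4.41) and S100a8 (-2.85), all genes of neutrophils and their precursors and named here after their values were seen (edgeR adjusted p = 0.0275, 0.0257, 0.0356 and 0.0329 with the block). The 41 also held the tetraspanin Cd9 (-1.13), the M-CSF receptor Csf1r (-2.22) and Map3k8 (-4.16), with edgeR adjusted p of 0.0427, 0.0385 and 0.0455 with the block. Gata2 averaged 168 ± 20.3 CPM under IL-33 and 63.9 ± 9.57 CPM in the steady state in stage I, and 377 ± 55.7 CPM and 46.7 ± 26.0 CPM in stage II. Crhbp averaged 446.7 ± 46.8 CPM under IL-33 and 10.5 ± 4.33 CPM in the steady state in stage I, and 371 ± 23.8 CPM and 2.99 ± 2.38 CPM in stage II (SD, n = 3 each). Both genes were thus already higher under IL-33 in stage I.

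Against stage III, 842 genes differed: the effect was lower in stage II for 572 (4.49%) and higher for 270 (2.12%). The count was 1664 without the steady state libraries numbered 3, and 1391 (802 lower and 589 higher) with the number within each condition as a block. Of the 842, 113 were also called in stage II. Scaling by library totals moved the median difference of all genes to -0.31 and the split to 892 lower and 115 higher. Cell division genes had the lower effect in 25 of 34 S phase and 28 of 34 G2 and mitosis members, under library totals in 29 and 30. Mki67 averaged 456.9 ± 20.5 CPM under IL-33 and 359 ± 140 CPM in the steady state in stage II, and 374 ± 36.6 CPM and 60.5 ± 17.7 CPM in stage III; its effect was 2.28 log2 units smaller in stage II (edgeR adjusted p = 0.00126). Epx averaged 16316 ± 1188 CPM under IL-33 and 12198 ± 2276 CPM in the steady state in stage II, and 13779 ± 1998 CPM and 2702 ± 1075 CPM in stage III (difference -1.93, edgeR adjusted p = 0.00238). In both genes the IL-33 means of the stages were closer to each other than the steady state means, which were lower in stage III. Gata2 and Cyp11a1 also had smaller effects in stage II (differences -2.01 and -3.95, edgeR adjusted p = 0.0136 and 0.00126), and Nqo1 a larger one (2.48, edgeR adjusted p = 0.00377).

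**Figure D5:**
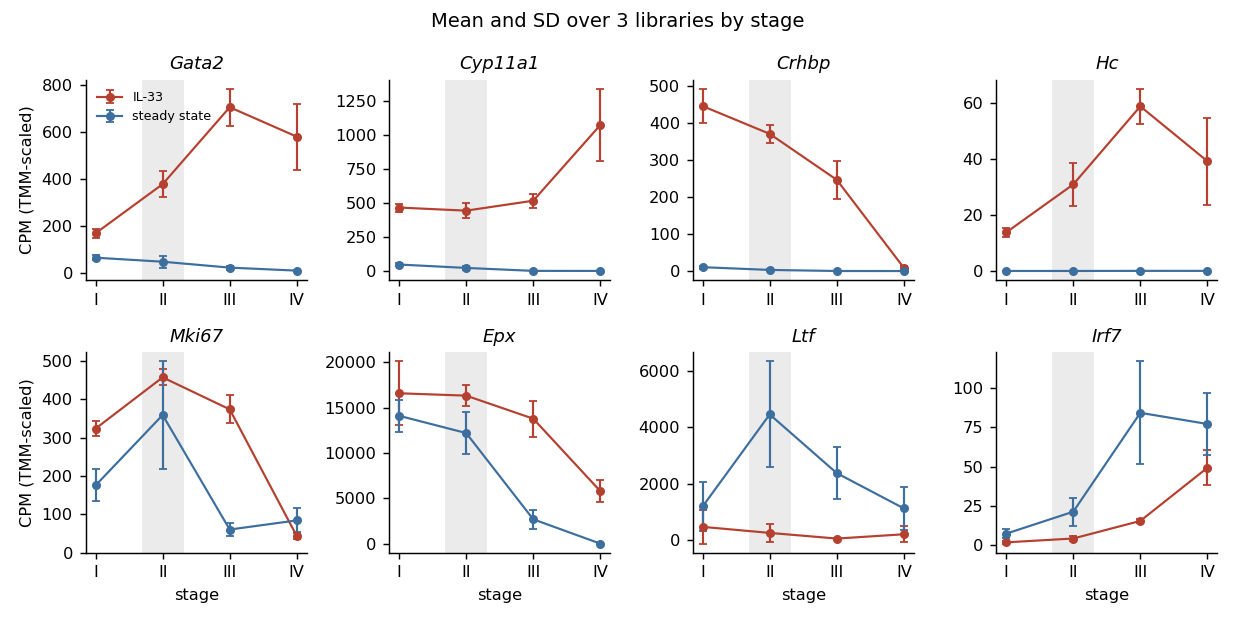
Mean CPM and SD over 3 libraries of 8 genes at stages I to IV under IL-33 (red) and in the steady state (blue), on linear axes, with stage II shaded. Gata2, Cyp11a1, Crhbp and Hc lie above the steady state at stage II and Ltf and Irf7 below it. Mki67 and Epx were not called there, and the distance between their group means is larger at stage III.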

How the data were processed

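RNA from sorted cells was reverse transcribed with SMART-Seq v4 and made into libraries with Nextera XT, per the labels' protocols; the kits do not mark strand, so reads of antisense or overlapping genes cannot be told apart. The authors deposited raw counts per gene symbol for each library. Alignment with STAR 2.6.1a to mm10 and use of DESeq2 come from the submitters' processing notes; neither the counter nor its annotation is named in the sources read here. Lines for reads with no feature or ambiguous assignment were dropped from library sizes and tests; ambiguous reads were 2.08% to 2.13% in IL-33 and 1.73% to 1.92% in steady state stage II libraries.

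Groups came from sample titles, and libraries of a group differed by more than counting noise (chi-square per degree of freedom 17.37 to 19.98 in IL-33, 41.6 to 106 in the steady state). A single edgeR 4.0.16 quasi-likelihood model (R 4.3.3, TMM scaling, filterByExpr by group) was fitted to all 24 libraries in 8 groups. This model assumes a spread shared by the groups, although steady state stage II libraries differed more among themselves than IL-33 ones. P-values were Benjamini-Hochberg adjusted over 12743 genes, with 0.05 as threshold. CPM are TMM-scaled. Intervals and floors (3 counts) cover counting error only. Gene positions are from GENCODE M21 (GRCm38); 24490 of 24982 symbols matched. The script was tested on simulated data. DESeq2 1.42.0, limma 3.58.1 (voom with sample weights), RLE and library-total scaling, other filters, the 6 libraries alone, a replicate block and omitted libraries were tried. A block of the library number within each condition, for the differences between stages, was added after seeing the data.

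The genes named were the 15 largest changes in each direction with non-overlapping groups and a mean of at least 20 CPM in a group, the 4 lowest p-values of each of 43 gene lists, a panel of 25 genes and the 4 largest differences in each direction between stages. Some further list members that passed the test were named after their values were seen. The comparison, lists and panel were chosen with earlier results of these data known.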

Additional observations from a re-analysis of the deposited data

Results flagged for a closer look

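For 33 of 208 genes picked by the naming rules the effect of IL-33 on the log2 scale differed between stage II and stage III. The test was of the difference itself (edgeR, adjusted over all genes tested). The 4 extreme genes in each direction, given last, were picked by this same test, so they pass it by construction. Over all genes tested the effect was lower in stage II for 4.49% and higher for 2.12%. The effect was smaller or more negative in stage II for DNA replication and mitosis genes, with differences of -2.07 for Fen1, -2.41 for Tyms, -2.38 for Rfc4, -2.42 for Mcm3, -3.08 for Tpx2, -2.46 for Cdk1, -2.38 for Nuf2 and -2.28 for Mki67, and for the transcription factor Myc (-3.77). In all of these the steady state mean was lower in stage III than in stage II. The same sign was seen for Crhbp (-3.97), Cyp11a1 (-3.95), Gata2 (-2.01), Epx (-1.93), the nucleolar gene Mybbp1a (-2.14), the chaperone Canx (-1.11), the heme synthesis gene Fech (-0.98), the protease inhibitor Serpinb1a (-1.92), Prtn3 (-2.14) and Fcer1a (-3.02).

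The difference was positive for Nqo1 (2.48), the chemokine Ccl6 (2.03), the MHC class I genes H2-D1 (0.93) and H2-K1 (1.01), Il4 (1.67) and the progenitor factor Meis1 (2.20). Among these, Il4 averaged 46.9 CPM under IL-33 and 45.1 CPM in the steady state in stage II, and 79.1 CPM and 243 CPM in stage III.

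The extreme differences were -11.48 for Hs3st1, -10.97 for Slc22a3, -9.75 for Cdh1 and -8.87 for Fpgs, and on the other side 8.63 for Unc5c, 6.40 for Adgrg6, 4.89 for P2ry10 and 4.23 for Cpeb1. Hs3st1, Slc22a3 and Fpgs had no count in steady state stage III libraries, so the size of their fitted differences depends on the prior count and is no bound. In stage II, Unc5c rested on 46 counts in IL-33 and 1 in the steady state, a ratio of 36.4 with a 95% exact counting interval of 6.21 to 1467. The size of the Unc5c difference is therefore uncertain too. Slc22a3, a cation transporter, averaged 74.1 CPM under IL-33 and 18.5 CPM in the steady state in stage II, and 90.2 CPM under IL-33 and 0 CPM in the steady state in stage III.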

How the results depend on the processing

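The count of genes changed in stage II, 1023, was 1542 with DESeq2 and 464 with a replicate block on the 6 stage II libraries alone, and 381 to 1033 with one library left out. RLE scaling gave 410 higher and 580 lower, a share of 41.4% higher against 50.5%. The replicate block on 24 libraries gave 1235; IL-33 and steady state stage II libraries of one number share only that number (correlations of their deviations 0.044, 0.031 and 0.068). Across stages within a condition, same-numbered libraries correlated at 0.023 to 0.298, those numbered 3 in the steady state at 0.163 to 0.298, and differently numbered ones at -0.192 to 0.072. The difference from stage I, with 0 genes, gave 103 with DESeq2, 37 with limma-voom, 12 without a filter, 1 with the replicate block on 24 libraries, 41 with the block within each condition, 31 without the steady state libraries numbered 3 and 0 to 12 with one library left out. The difference from stage III, 842 genes, gave 1364 with DESeq2, 1391 with the block within each condition, 1664 without the steady state libraries numbered 3 and 471 to 1177 with one library left out. The cause was not tested. Over the genes named and the highest-ranked members of each list, 1 changed sign where it was called in at least one of the fits compared: Gp1ba, whose log2 fold change was -1.72 to 4.43 with one library left out. Calls were lost most often without IL-33 library 2 (87), and for 66 with the replicate block on 6 libraries. With 3 pools a group, exact permutation cannot go below 0.1.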
